A study of Mus musculus with 24 samples.

Results

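Troponins and tropomyosins are the proteins of the thin filament that switch contraction on and off. The 10 genes described here are Tnnt1, Tnnt2 and Tnnt3 (troponin T), Tnni1, Tnni2 and Tnni3 (troponin I), Tnnc1 and Tnnc2 (troponin C), and the tropomyosins Tpm1 and Tpm2. They were chosen by symbol, and all 10 were found, with 17 probes, among the 21368 genes named on the array. Transcripts were measured on 24 Agilent arrays of 1 colour, from 4 tissues (liver, brain, heart and a skeletal muscle) taken from 6 females. The knockin line had been backcrossed to C57BL6 by the labels and to C57BL/6N by the methods. The animals were Rap1 knockin (KI) mice, in which the gene Terf2ip carries the I312R point mutation that keeps RAP1 protein from binding TRF2 at telomeres, and wild-type (WT) mice. Each genotype had 3 mice, and the same 6 mice gave all 4 tissues. Letters name the animals by their animal numbers, with A, B and C for KI and D, E and F for WT. Mouse C and mouse F were 14 months of age, and the remaining mice 15. The mutation was present in all cells, so the KI mice do not show which tissue an effect starts in. The labels do not say which skeletal muscle was taken.

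Troponin C binds calcium, troponin I holds back actin and myosin, and troponin T ties both to tropomyosin, the coiled coil that lies along actin. Mammals carry separate troponin genes for fast skeletal, slow skeletal and cardiac muscle, and the slow form of troponin C is also the cardiac form. Fibres of a muscle are fast or slow, and each type uses its own set. Tropomyosins are also made in cells without sarcomeres, from other promoters and splice forms of the same genes.

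The genes lie in pairs of a troponin I and a troponin T gene. Tnnt1 and Tnni3 are direct neighbours among the protein-coding genes of chromosome 7, Tnni2 and Tnnt3 lie on chromosome 7 with Lsp1 between them, and Tnni1 and Tnnt2 lie on chromosome 1 with Lad1 between them. Of the neighbouring pairs, only Tnni2 and Tnnt3 had their highest level in the same tissue in these data. Promoter sequence was found for 8 of the 10 genes. The 250 bases before the start of Tnnt1, Tnni1 and Tnnc1 are shown because these 3 genes varied together between the muscles, and those of Tnnt2 because it shares a locus with Tnni1 but had its highest level in heart. The sequences are those of RefSeq on GRCm38.p6, from chr7:4515976-4516225 (minus strand), chr1:135799171-135799420, chr14:31208062-31208311 and chr1:135836084-135836333 (plus strand), each read 5′ to 3′ in the direction of the gene. Capitals mark the E-box (CANNTG), the MCAT motif (CATTCC) and the TATA motif (TATAAA), searched on both strands.
Tnnt1 promoter: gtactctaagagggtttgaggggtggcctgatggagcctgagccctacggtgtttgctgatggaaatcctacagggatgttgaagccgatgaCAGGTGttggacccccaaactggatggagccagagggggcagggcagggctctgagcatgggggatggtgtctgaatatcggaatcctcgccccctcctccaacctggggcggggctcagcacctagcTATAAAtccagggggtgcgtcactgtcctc
Tnni1 promoter: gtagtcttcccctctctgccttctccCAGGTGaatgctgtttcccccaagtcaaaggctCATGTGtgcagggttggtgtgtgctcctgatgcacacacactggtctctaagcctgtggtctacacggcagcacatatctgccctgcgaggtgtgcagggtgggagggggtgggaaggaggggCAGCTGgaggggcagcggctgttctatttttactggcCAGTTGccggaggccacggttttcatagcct
Tnnc1 promoter: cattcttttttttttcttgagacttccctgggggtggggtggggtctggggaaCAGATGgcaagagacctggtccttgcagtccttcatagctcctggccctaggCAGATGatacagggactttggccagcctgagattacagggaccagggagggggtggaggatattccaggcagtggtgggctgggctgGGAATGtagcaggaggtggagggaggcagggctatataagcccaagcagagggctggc
Tnnt2 promoter: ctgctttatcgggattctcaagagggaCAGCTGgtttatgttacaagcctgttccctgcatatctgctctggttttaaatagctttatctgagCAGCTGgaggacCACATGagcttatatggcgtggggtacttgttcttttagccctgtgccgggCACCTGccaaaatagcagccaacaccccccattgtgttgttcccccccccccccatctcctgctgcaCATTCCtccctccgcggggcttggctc
Tnnt1 held 1 E-box and a TATA motif, Tnni1 held 4 E-boxes, Tnnc1 held 2 E-boxes and 1 MCAT motif, and Tnnt2 held 4 E-boxes and 1 MCAT motif. Tnni1 and Tnnt2 each had a second promoter entry, not shown, with 2 E-boxes for Tnni1 and 1 E-box and no MCAT motif for Tnnt2. Of all 32851 promoters of this length, 66.2% held an E-box, 12.6% an MCAT motif and 12.4% a TATA motif, so an E-box alone does not set these promoters apart.

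Levels are log2 values of the background-corrected signal from which the 75th percentile of each array was taken off, so that 1 unit is a factor of 2 and 0 is the signal that 75% of the spots do not exceed. Levels of a probe are compared between samples and never between genes. In whole tissue, fewer cells of a type and less RNA per cell cannot be told apart. Each tissue carried its own markers. The mean level of 6 hepatocyte markers was at least 8.42 in every liver, that of 6 neuron markers at least 5.50 in every brain, that of 6 cardiomyocyte markers at least 5.78 in every heart, and that of 9 fast fibre markers at least 7.20 in every muscle. Terf2ip was well above background on all 24 arrays, and its KI minus WT difference lay between -0.33 and -0.07 (log2) over the tissues, which does not test the labels because a point mutation need not change the amount of transcript.

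Some samples stood apart before any comparison. The liver of KI mouse C averaged -0.19 over the fast fibre markers, where no other liver exceeded -4.83. The hearts of KI mouse B and WT mouse E averaged 8.32 and 6.12 over 4 atrial markers, where no other heart exceeded 2.27. Hepatocyte markers averaged 5.16 in the brain of KI mouse C and no more than -1.08 in any other brain, and 6 mammary epithelium markers averaged -0.31 in the muscle of KI mouse B and no more than -4.64 in any other muscle.

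Across the 4 tissues, the troponins separated into those highest in heart, Tnnt2, Tnni3 and Tnnc1, and those highest in skeletal muscle, Tnnt1, Tnnt3, Tnni1, Tnni2 and Tnnc2, while both tropomyosins were highest in muscle. All 10 genes differed between heart and muscle (limma, adjusted p under 0.05), though Tnnt1 and Tpm1 not under every setting. Of the 10 genes, 3 were higher in heart and 7 lower. That comparison called 64.7% of all 17299 genes tested, 29.4% higher and 35.3% lower, so passing it is common, and the sizes carry the result. The median difference of the 10 genes was -3.79 (log2), against -0.10 over all genes tested. The fits used all 24 arrays and the spread of all 8 groups, so an SE need not match the spread of the tissues compared. For Tnnt1, Tnni1 and Tnnc1 the SD over the muscles was 3.03, 3.06 and 3.19, and at most 0.95 in any other tissue. For these genes the SE is therefore too small for comparisons with muscle and too large for those without it.

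**Figure D1:**
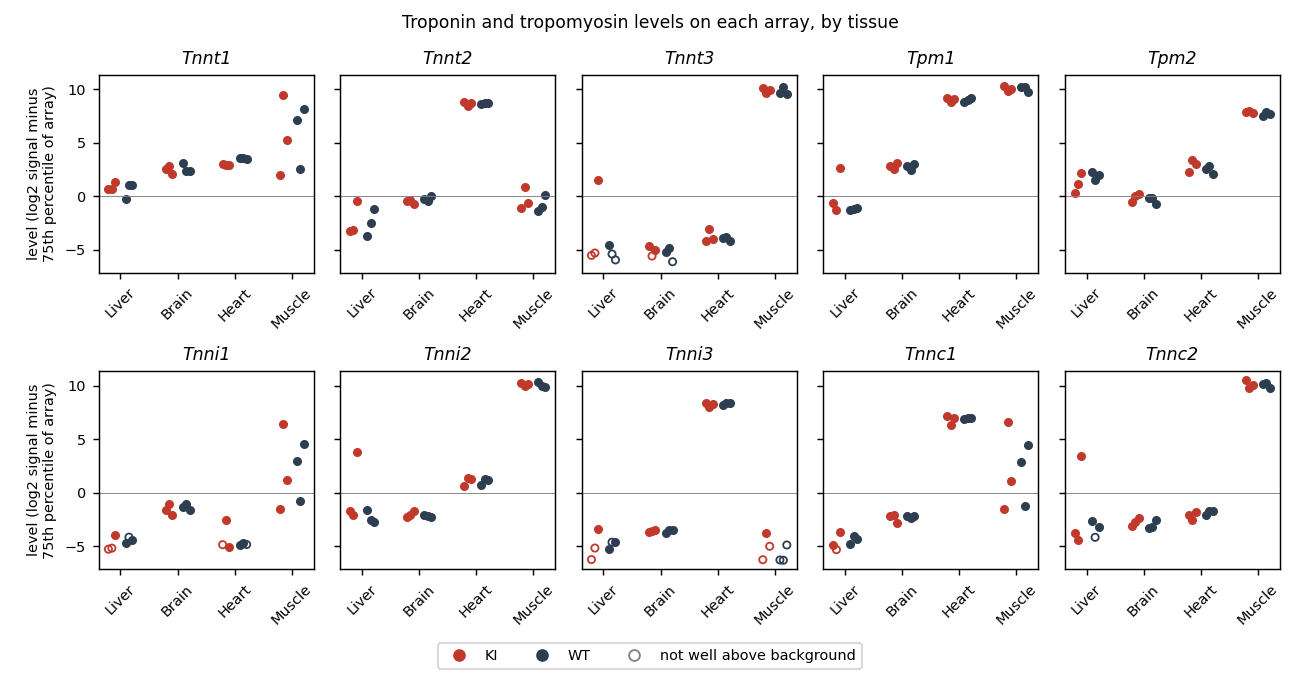
Level of each gene on each of the 24 arrays (log2 signal minus the 75th percentile of the array), by tissue, for KI and WT mice (3 each per tissue). Open circles are spots not well above background. Tnnt3, Tnni2 and Tnnc2 lie near 10 in muscle, Tnnt2 and Tnni3 lie above 8 in heart, and Tnnt1, Tnni1 and Tnnc1 are spread widely over the muscles.

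Of the troponin T genes, Tnnt2, the cardiac form, had levels of 8.45 at the lowest, 8.70 at the median and 8.83 at the highest over the 6 hearts. In muscle its levels ran from -1.41 over a median of -0.78 to 0.84. The tissues did not overlap, and the mean difference was 9.19 ± 0.46 (SE, n = 6 mice), or 584-fold (limma, adjusted p = 5.07e-12). Brain (-0.73 to 0.02) and muscle were next in order and did not pass the test against each other (difference muscle minus brain -0.15, 95% interval -1.11 to 0.82), and liver had the lowest mean, -2.39.

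Tnnt3, the fast skeletal form, ran from 9.53 over a median of 9.78 to 10.19 in muscle and from -4.17 over -3.91 to -3.08 in heart. Heart minus muscle was -13.66 ± 0.81 (SE, n = 6), or 12949-fold (adjusted p = 5.25e-11). Heart, liver and brain did not pass the test against each other for Tnnt3, and the probe was well above background on 6, 2 and 4 of 6 arrays there. Its other probe gave a heart minus muscle difference of -13.96.

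Tnnt1, the slow skeletal form, had levels from 2.01 over a median of 6.19 to 9.42 in muscle and from 2.95 over 3.23 to 3.61 in heart. The ranges overlapped because the muscles of mice A and E lay below every heart. Heart minus muscle was -2.50 ± 0.94 (SE, n = 6; adjusted p = 0.0260). That call was lost on quantile normalization (-2.01, adjusted p = 0.0542), with slide as a term (-2.55, adjusted p = 0.144), with the WT arrays alone (-2.40, adjusted p = 0.0967) and when mouse B (-1.53), C, D or F was left out, with an adjusted p between 0.00560 and 0.142 over the mice left out. Heart and brain did not pass the test against each other (0.70, 95% interval -1.27 to 2.66), nor did liver and brain (-1.81, 95% interval -3.77 to 0.16). The livers and brains did not overlap, though, and the shared spread of the test includes that of the muscles. Liver against brain passed by limma on quantile normalization (-2.11, adjusted p = 0.0328) and with normexp background correction before it (-2.06, adjusted p = 0.0290). It also passed by limma with array weights (-1.89, adjusted p = 0.00752).

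Among the troponin I genes, Tnni3, the cardiac form, ran from 8.02 over 8.33 to 8.37 in heart, and in muscle from -6.30 over -5.63 to -3.76, where it was well above background in 1 of 6 muscles, that of mouse B. The tissues did not overlap (adjusted p = 4.03e-15), and no fold is given because most muscles lay at background. Brain had a mean of -3.59 with all 6 arrays above background. It passed the test against liver and muscle (adjusted p = 0.00685 and 0.000452), where 3 of 6 livers and 1 of 6 muscles were above background, so the size of these differences was not measured.

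Tnni2, the fast skeletal form, ran from 9.87 over 10.06 to 10.38 in muscle and from 0.60 over 1.26 to 1.39 in heart, a heart minus muscle difference of -9.004 ± 0.65 (SE, n = 6), or 513-fold (adjusted p = 9.46e-10). Unlike Tnnt3 it was well above background on all 24 arrays. Liver and brain did not pass the test against each other (0.95, 95% interval -0.41 to 2.32).

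Tnni1, the slow skeletal form, ran from -1.50 over 2.12 to 6.38 in muscle and from -5.07 over -4.84 to -2.56 in heart, where 4 of 6 arrays were above background. The tissues did not overlap, with heart minus muscle at -6.62 ± 0.98 (SE, n = 6; adjusted p = 1.08e-05). Brain came second with a mean of -1.46, with heart minus brain at -3.03 (adjusted p = 0.00888) and liver minus brain at -3.16 (adjusted p = 0.00622). The heart and brain call was lost with normexp background correction followed by quantile normalization (adjusted p = 0.0662) and with slide as a term (adjusted p = 0.0562). The liver and brain call was lost under the same settings (adjusted p = 0.0687 and 0.0615), with 3 of 6 livers above background. Heart and liver did not pass (0.13, 95% interval -1.93 to 2.19).

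Of the troponin C genes, Tnnc1, shared by heart and slow muscle, ran from 6.28 over 6.98 to 7.18 in heart and from -1.49 over 2.01 to 6.56 in muscle. Heart was higher by 4.85 ± 0.99 (SE, n = 6; adjusted p = 0.000320), yet the ranges met, because the muscle of mouse B (6.56) lay above the heart of the same mouse (6.28). Brain (mean -2.28) and liver (mean -4.51) were lower than both. The fast form Tnnc2 ran from 9.79 over 10.09 to 10.53 in muscle and from -2.59 over -1.96 to -1.73 in heart, a heart minus muscle difference of -12.10 ± 0.86 (SE, n = 6), or 4391-fold (adjusted p = 7.14e-10). Heart, liver and brain did not pass the test against each other for Tnnc2.

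Of the tropomyosins, Tpm1 was high in both heart and muscle. Tpm1, the main tropomyosin of heart and fast muscle, ran from 8.77 over 9.04 to 9.18 in heart and from 9.78 over 10.11 to 10.33 in muscle. The ranges did not overlap, and heart minus muscle was -1.06 ± 0.42 (SE, n = 6; adjusted p = 0.0340). The call was lost on quantile normalization (-0.10, adjusted p = 0.848), also with normexp background correction before it (-0.08, adjusted p = 0.855). The difference thus depends on the scaling, where the 75th percentile taken off was a signal of 860.4 to 1129.8 in hearts and 312.5 to 593.2 in muscles. The call was lost too with slide as a term (-0.95, adjusted p = 0.226) and without mouse A, D, E or F. Over the mice left out the value stayed between -1.17 and -0.99, while the adjusted p of limma ran from 4.43e-05 to 0.121. The shared spread includes the liver of KI mouse C, where Tpm1 was 2.64 against at most -0.66 in the other livers. Against brain, heart was higher by 6.20 and muscle by 7.25 (adjusted p = 8.38e-11 and 6.86e-12).

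Tpm2, the beta tropomyosin, ran from 7.47 over 7.80 to 7.92 in muscle and from 2.04 over 2.69 to 3.37 in heart, a heart minus muscle difference of -5.07 ± 0.26 (SE, n = 6), or 33.6-fold (adjusted p = 8.67e-12). Liver (0.29 to 2.25) came next and brain (-0.76 to 0.22) last. All 6 tissue comparisons passed the test for Tpm2, as they did for Tnnc1 and Tpm1, though for Tnnc1 liver against brain only just (adjusted p = 0.0438, lost under 5 of the other settings and without mouse A, C, D, E or F). The livers and brains did not overlap in Tnnc1 (SD 0.60 and 0.26), and the shared spread of that test includes the muscles (SD 3.19). For Tpm2, heart against liver (1.12) was lost with the WT arrays alone (0.54, adjusted p = 0.0945) and with slide as a term (1.03, adjusted p = 0.0996).

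Heart against liver called 7 of the 10 genes, all higher in heart, where 74% of all genes were called, 38.9% higher and 35.1% lower. Heart against brain called 7, of which 6 were higher and 1, Tnni1, lower in heart, where 79.3% of all genes were called, 44.1% higher and 35.2% lower. Muscle against liver called 9, all higher in muscle, where 79.2% were called, 43.9% higher and 35.3% lower. Muscle against brain called 9, of which 8 were higher and 1, Tnni3, lower in muscle, where 82.1% were called, 46.6% higher and 35.5% lower. Liver against brain called 6, of which 1, Tpm2, was higher and 5 were lower in liver, where 84.4% were called, 45.7% higher and 38.6% lower. The RNA of brain and liver was made with another kit than that of heart and muscle, and kit and tissue cannot be told apart. Muscle and liver each lay on 1 slide. With slide as a term, heart against liver called 4 of the 10 genes in place of 7 and liver against brain 3 in place of 6. Muscle against brain then lost the calls of the slow troponins Tnnt1, Tnni1 and Tnnc1 (limma, adjusted p = 0.119, 0.0629 and 0.0694). Muscle against liver lost those of Tnnt1 and Tnnt2 (limma, adjusted p = 0.0599 and 0.198).

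The slow troponins varied more between the 6 muscles than nearly all genes, and they varied together. The muscles of mice A, B and C had Tnnt1 levels of 2.01, 9.42 and 5.27, and those of mice D, E and F levels of 7.12, 2.52 and 8.18. Tnni1 had levels of -1.50, 6.38 and 1.23 in A, B and C and of 3.00, -0.77 and 4.50 in D, E and F. Tnnc1 had levels of -1.49, 6.56 and 1.11 in A, B and C and of 2.91, -1.25 and 4.41 in D, E and F. In all 3 genes the order from low to high was A, E, C, D, F, B, and both genotypes held low and high muscles.

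From the lowest to the highest muscle, Tnnt1 spanned 7.41 (log2), or 171-fold, Tnni1 7.88, or 236-fold, and Tnnc1 8.04, or 264-fold. Among 13516 genes measured in muscle the median span was 0.72, and 15 genes, or 0.111%, spanned 7 or more. Tnnc1, Tnni1 and Tnnt1 stood at places 5, 7 and 13 in that order. Without mouse B, whose muscle also held mammary markers, the spans were 6.17 for Tnnt1, 6.01 for Tnni1 and 5.90 for Tnnc1, or 72.0-fold, 64.2-fold and 59.5-fold.

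**Figure D2:**
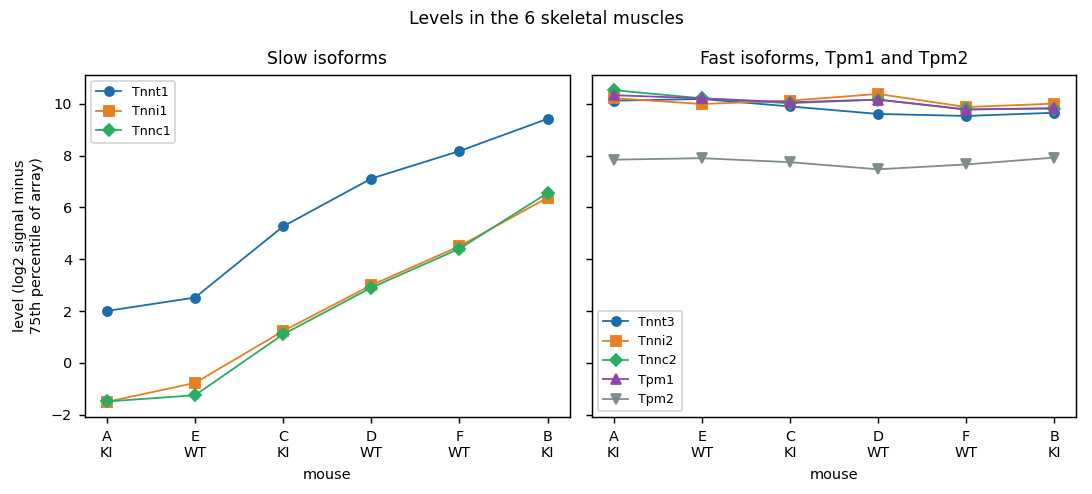
Levels (log2 signal minus the 75th percentile of the array) in the 6 muscles, 1 point per array, with mice ordered from the lowest to the highest Tnnt1. The slow isoforms (left) rise by 7.41 to 8.04 from mouse A to mouse B, while the fast isoforms and the tropomyosins (right) span 0.45 to 0.74.

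Of the 13 genes whose span was at least that of Tnnt1, 7 had the same order of mice. These were the 3 slow troponins with Myh7 and Myh7b (slow and cardiac myosin heavy chains) and Myl2 and Myl3 (their light chains). The other 6 (Bglap2, Bglap3, Camp, Muc20, S100a9 and Sbk3) had other orders, and include osteocalcin genes of bone and granulocyte genes. Of the 6 slow fibre markers, 5 had the order of Tnnt1, and the mean of the list lay between 0.49 and 7.23 in KI muscles and between 0.86 and 5.91 in WT muscles. The part of the muscle taken, and how it differed between mice, was not tested.

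The fast isoforms moved little over the same muscles. Tnnt3 spanned 0.66, Tnni2 0.51, Tnnc2 0.74, Tpm1 0.55 and Tpm2 0.45, against the median span of 0.72 over all genes. The fast fibre marker mean lay between 7.20 and 7.74 in the 6 muscles. Tnnc2 and Tpm1 shared their order, lowest in F and B and highest in A, and the values from A to F were 10.53, 9.82, 10.02, 10.16, 10.21 and 9.79 for Tnnc2. The 75th percentile taken off ran nearly the other way, a signal of 312.5, 573.8, 492.5, 406.2, 441.6 and 593.2 from A to F. The part of the scaling in this order was not tested.

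Tpm3, which encodes the slow muscle tropomyosin as well as forms made in most cells, showed the same split by transcript. It was looked at after the values of the slow troponins were known. Its brightest probe spanned 1.79 over the muscles and lay between 3.65 and 5.67 in all tissues. Both probes of the transcript NM_001293748 followed the slow troponins, with spans of 7.47 and 8.35, and 1 of them had exactly their order of mice.

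The tissue pattern of Tpm1 differed between its 5 probes. The 2 probes of NM_001164248 had means of 10.06 and 9.77 in muscle, 9.002 and 8.75 in heart, 2.81 and 2.42 in brain and -0.47 and -1.03 in liver. The probe of NM_001164255 ran the other way, with a mean of 4.01 ± 0.27 (SD, n = 6) in liver, 1.999 ± 0.26 in brain, 1.17 ± 0.12 in muscle and 0.77 ± 0.26 in heart. On that probe muscle minus liver was -2.84 and heart minus liver -3.24 (limma over all array features, adjusted p = 2.46e-12 and 4.21e-13), and the 6 livers (3.61 to 4.33) did not overlap with any other tissue.

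**Figure D3:**
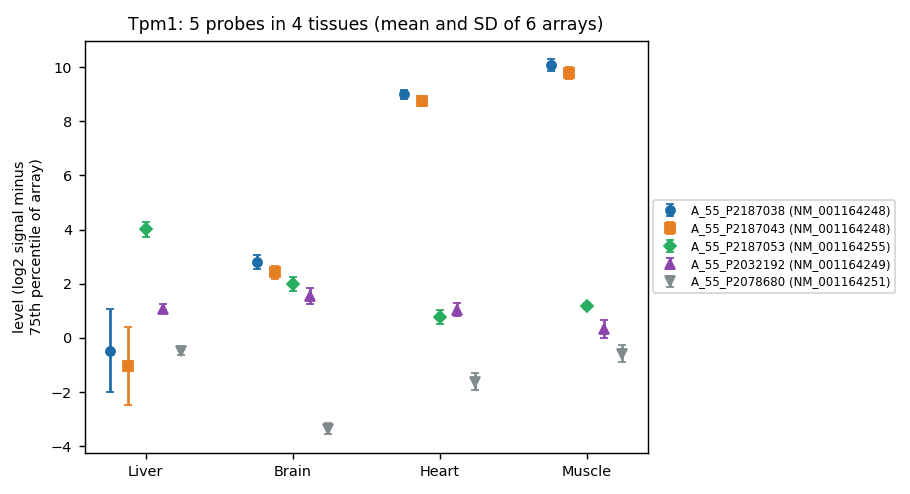
Mean level and SD over 6 arrays of the 5 Tpm1 probes in each tissue, labelled by probe and RefSeq transcript (log2 signal minus the 75th percentile of the array). The probes of NM_001164248 lie near 9 and 10 in heart and muscle, while the probe of NM_001164255 is highest in liver at 4.01.

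The probe of NM_001164249 changed little, from 0.32 in muscle to 1.54 in brain, and that of NM_001164251 was lowest in brain (-3.35) and highest in liver (-0.49) and muscle (-0.58). The values given for Tpm1 elsewhere are those of the brightest probe, of NM_001164248. The probes of Tnnt1, Tnnt3 and Tpm2 had the same highest tissue within each gene.

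In liver, 9 of the 10 genes had their highest level in KI mouse C, with Tpm2 as the exception. Tnni2 was 3.79 in that liver and -1.69 and -2.04 in KI mice A and B, and -1.65, -2.50 and -2.78 in WT mice D, E and F. Tnnc2 was 3.40 there and between -4.37 and -2.68 in the other 5 livers. Tnnt3 was 1.50 against -5.94 to -4.59, and Tpm1 2.64 against -1.28 to -0.66. The gap to the next liver was 3.30 for Tpm1 and 5.44 to 6.09 for the 3 fast troponins, against at most 1.21 for the other members.

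Relative to their mean level in muscle, these values were 0.311% for Tnnt3, 0.583% for Tpm1, 0.970% for Tnnc2 and 1.26% for Tnni2. Of 9 fast fibre markers, 8 were highest in the same liver, among them Myh2, a fast myosin heavy chain, at 1.90 against at most -5.32. The slow fibre markers also stood apart there, with a mean of -1.58 against at most -4.37, Myl2 at -0.05 against at most -5.54 and Myl3 at -0.10 against at most -3.43. Among the slow troponins the gap was smaller, with Tnnt1 at 1.34 against 1.04 in the next liver and Tnni1 at -3.92 against -4.15. In the muscle of the same mouse Tnnt1 and Tnni1 had middle levels, 5.27 and 1.23. The part of muscle RNA in the liver values was not tested.

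**Figure D4:**
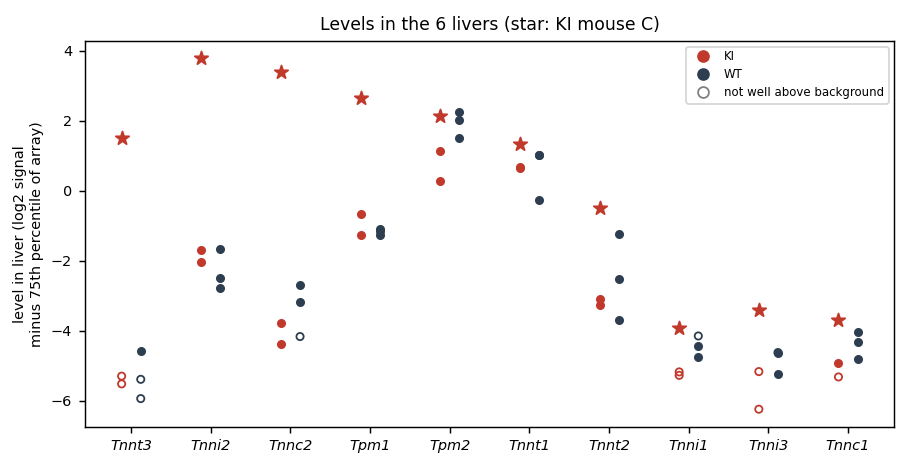
Levels in the 6 livers (log2 signal minus the 75th percentile of the array), 1 symbol per array, KI left and WT right in each column. Stars mark KI mouse C and open symbols spots not well above background. Tnnt3, Tnni2, Tnnc2 and Tpm1 of KI mouse C lie 3.30 to 6.09 above the next liver.

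That liver changed comparisons of tissues. Without it, heart was above liver for Tnnt3 by 1.53 and for Tnnc2 by 1.69 (adjusted p = 8.77e-05 and 7.69e-06), where the values with it were 0.38 and 0.45 (adjusted p = 0.687 and 0.650). Since the fit shares its spread, heart was then also above brain for Tnnt3 (1.39, adjusted p = 0.000113) and Tnnc2 (0.88, adjusted p = 0.00247).

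Of the 2 hearts high in atrial markers, that of KI mouse B stood at the end of the range in every one of these genes. It had the lowest Tnnt2 (8.45), Tnni3 (8.02), Tnnc1 (6.28), Tpm1 (8.77), Tnnt1 (2.95) and Tnnc2 (-2.59). It had the highest Tnni1 (-2.56, against at most -4.69), Tnnt3 (-3.08), Tpm2 (3.37) and Tnni2 (1.39). Myl7, the atrial light chain, was 7.44 in the heart of mouse B and 4.27 in that of E, against at most 0.18 elsewhere. The heart of WT mouse E had the highest Tnnt1 (3.61) and Tnnc2 (-1.73). It came second to B in Tnni1 (-4.69), Tnnt3 (-3.75) and Tnni2 (1.32). It lay inside the range of the other hearts in Tnnt2 (8.67), Tnni3 (8.33), Tnnc1 (6.99), Tpm1 and Tpm2 (2.83). The part of the atrial share in these values was not tested.

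Between KI and WT mice, no troponin or tropomyosin passed the test in any tissue. Of the 10 genes, 7 were tested in liver and 9 each in brain, heart and muscle, where testing required a signal well above background in all 3 mice of either genotype. Tnnt3, Tnni1 and Tnni3 could not be tested in liver, Tnnt3 in brain, Tnni1 in heart and Tnni3 in muscle. Over all genes 0% were called in each tissue at an adjusted p under 0.05, and at an unadjusted p under 0.05 there were 0 members in liver (11.7% of all genes), brain (0.79%) and muscle (0.851%) and 1 in heart (1.64%). The smallest adjusted p of a member was 0.515 in liver, 0.971 in heart, 0.99996 in brain and 0.9998 in muscle.

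The single member below 0.05 before adjustment was Tnnt1 in heart, where KI mice were lower. Its levels were 3.01, 2.95 and 2.95 in KI mice A, B and C and 3.55, 3.61 and 3.45 in WT mice D, E and F. The 3 KI hearts lay below the 3 WT hearts. The difference KI minus WT was -0.57 ± 0.12 (SE, n = 3 each; limma, adjusted p = 0.971, below 0.05 before adjustment). Its other probe gave -0.56 ± 0.13 (SE, n = 3 each), also without overlap, on other spots of the same RNA. In heart 5.04% of all genes were without overlap, 3.22% with KI below WT, beside 1 of the 9 members tested.

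Within slide 2 the Tnnt1 difference was -0.61 (2 hearts of each genotype) and within slide 3 it was -0.50 (1 of each). Slide followed age in heart, and these cannot be told apart. Without the hearts of mice B and E, the lowest and the highest in Tnnt1, the difference was -0.52. The means of all 14 cell type marker lists overlapped between the genotypes in heart. With the spread pooled over all 24 arrays, where muscle varies most, the unadjusted p was 0.673. In muscle the KI minus WT difference of Tnnt1 was -0.37 ± 2.12 (SE, n = 3 each), and the test of whether the genotype effect differed between heart and muscle gave an adjusted p of 0.9997 for every member (0 of 10 called, against 0% of all genes, with 0 members at an unadjusted p under 0.05, against 1.6% of all genes).

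**Figure D5:**
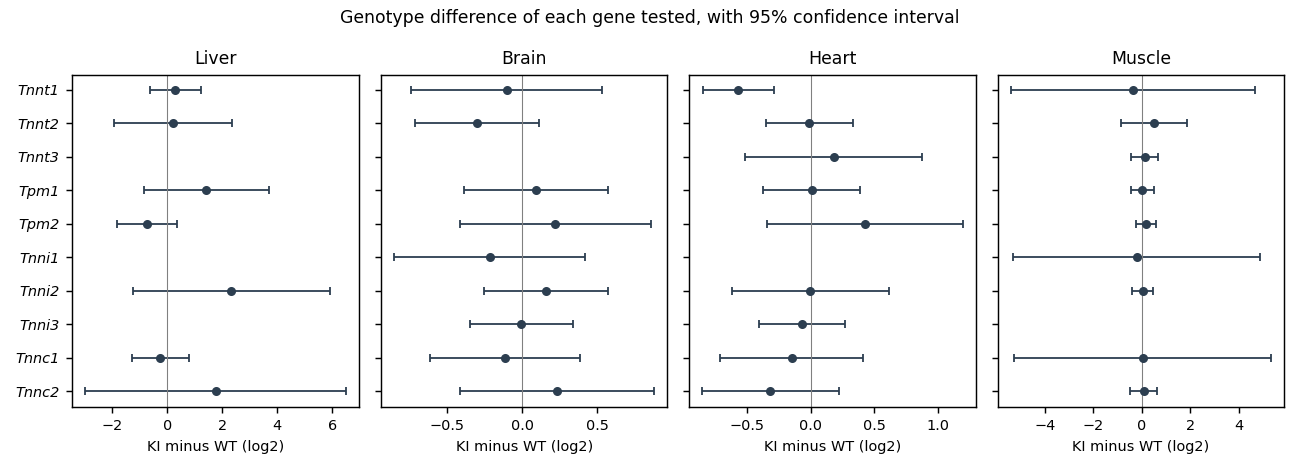
Difference KI minus WT (log2) of each gene tested, per tissue, as points with 95% confidence intervals from limma (3 mice per genotype). Each panel has its own scale. The intervals include 0 except that of Tnnt1 in heart (-0.85 to -0.29), which did not pass after adjustment, and those of the slow troponins in muscle span more than 10 units.

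How small a difference could be seen depended on the gene. In heart the 95% intervals of the cardiac members were narrow, -0.35 to 0.33 for Tnnt2, -0.41 to 0.27 for Tnni3, -0.71 to 0.41 for Tnnc1 and -0.37 to 0.39 for Tpm1. In muscle those of the fast members were also narrow, -0.44 to 0.67 for Tnnt3, -0.41 to 0.48 for Tnni2 and -0.49 to 0.63 for Tnnc2. Differences beyond a factor of 2 lie outside these intervals. For the slow troponins in muscle the intervals were -5.40 to 4.66 for Tnnt1, -5.30 to 4.89 for Tnni1 and -5.27 to 5.35 for Tnnc1, so that a large difference could not have been detected with 3 mice per genotype.

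Among the members tested in liver, the largest differences were 2.33 for Tnni2, 1.76 for Tnnc2 and 1.42 for Tpm1. They came with 2 KI livers near the WT livers and KI mouse C far above, as did 2.20 for Tnnt3, which was not tested. Without that liver the value was 0.44 for Tnni2, -0.73 for Tnnc2 and 0.22 for Tpm1. In brain the differences lay between -0.30 (Tnnt2) and 0.23 (Tnnc2), and no member had groups that did not overlap, against 2.86% of all genes. In liver and muscle none of the members was without overlap either, against 19.7% and 3.54% of all genes.

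Genes that work with troponin and tropomyosin were grouped in 7 lists with 104 genes. In the comparison of heart with muscle, 33 were higher and 52 lower in heart, where 29.4% of all genes were higher and 35.3% lower, and the counts of the single lists are to be read against these shares. Of 14 other thin filament proteins, 4 were higher and 7 lower in heart, with a median difference of -0.42 (log2), against -0.10 over all genes. Neb, the giant ruler of skeletal thin filaments, had a heart minus muscle difference of -9.58 and Acta1, skeletal actin, of -7.15, while Nebl, the cardiac relative of Neb, was at least 108-fold higher in heart (adjusted p = 2.35e-15, 1.95e-07 and 9.09e-15). Of 13 actins and actin-binding proteins of smooth muscle and other cells, where tropomyosin works without troponin, 6 were higher and 2 lower in heart, with a median difference of 0.50. Cnn2, a calponin, was higher by 1.69 and Tmod3, which caps filament ends, by 1.47.

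Of 15 Z-disc and thick filament partners, 3 were higher and 8 lower in heart (median -1.32). Mybpc3, cardiac myosin-binding protein C, was at least 7392-fold higher in heart, while the difference was -14.50 for Actn3, the fast fibre actinin, and -11.79 for Myoz1, a Z-disc protein of fast fibres. Of 14 genes that release, take up or buffer the calcium that troponin C binds, 5 were higher and 8 lower in heart (median -2.83). Pvalb, the calcium buffer of fast fibres, differed by -12.88 and Ryr1, the skeletal calcium release channel, by -11.97, while its cardiac counterpart Ryr2 was at least 1030-fold higher in heart.

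Of 12 kinases and phosphatases, 4 were higher and 4 lower in heart (median 0.06), among them Tnni3k, a kinase named for its binding to cardiac troponin I, higher by 9.42. Of 12 splicing regulators, 4 were higher and 7 lower in heart (median -0.59). Rbfox1 and Mbnl1, which select exons in muscle transcripts, differed by -2.85 and -2.06, and Rbm20, the splicing factor of cardiac titin, was higher by 1.46. Of 24 transcription factors, 7 were higher and 16 lower in heart (median -1.85). Nkx2-5 and Gata4, factors of the heart lineage, were at least 460-fold and at least 295-fold higher in heart, and Tbx15, a factor of fast fibres, differed by -9.50.

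Between the genotypes 0 of the 104 genes passed in any tissue (limma), with 99 of them tested in heart, 96 in muscle, 87 in brain and 62 in liver. An unadjusted p under 0.05 was found for 5 heart genes (1.64% of all genes), 1 muscle gene (0.851%), 7 liver genes (11.7%) and 0 brain genes (0.79%). In heart, KI minus WT was 0.77 for Neb, 0.39 for Ryr1, -0.41 for Myom2, which crosslinks thick filaments, -0.40 for Rbfox1 and -0.33 for Myocd, a cofactor of serum response factor, each with an adjusted p of 0.971 by limma. In muscle, Pln, the brake on the calcium pump, differed by -1.11 (adjusted p = 0.9998 by limma).

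Genes with the pattern most like that of a member were found by Pearson correlation of levels, given as a description. Over all 24 arrays, which fall into 4 tissues, those most like Tnni3 were Grk5 (0.989), Spata33 (0.988) and Lbh (0.985), and those most like Tnni2 were Myoz1 (0.986), Casq1 (0.975) and Vgll2 (0.974). Those most like Tnni1 were Myl6b (0.900), Fam240a (0.900) and Myh3 (0.897). Over the 6 muscles, Tnnt1 was most like Myh7 (0.998), Myh7b (0.992) and Bfsp2 (0.990), and Tnnc2 most like Gm12070 (0.998), Rps6kb1 (0.996) and Tyw5 (0.996). The 6 muscles share 1 slide.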

How the data were processed

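Each of 24 RNA samples, carrying Cy3, was measured on its own array. The authors deposited scanner files, and per the file headers the intensities were extracted with Agilent Feature Extraction 12.0.3.1, which had corrected the processed signal for background. The deposited flags, a score of 0 or 1 per spot, mark outlier spots and spots well above background. A score table that the authors deposited (33912 features) held z-scores of the log signal within each array (largest difference 0.005) and served as an alternative. No array test is named in the methods.

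Signals were taken to log2, without control spots and outlier spots. The 75th percentile of each array (a signal of 312.5 to 2519.4) was subtracted, taken over all spots that are not controls, outlier spots included. On each array 49.4% to 68.4% of probes were well above background and no spot was saturated. The number of arrays limits the precision. The RefSeq accession of a probe gave its symbol by way of the GRCm38.p6 gene list (the design of the array used another build), and 99.0% of 26732 curated mRNA probes matched. The probe with the highest mean stood for a gene. Tests were two-sided and used lmFit and eBayes of limma 3.58.1, under R 4.3.3 (Benjamini-Hochberg over all genes tested, threshold 0.05), per tissue for genotype and over all 24 arrays with 8 group means for tissues. With 3 against 3 mice the smallest p of an exact permutation test is 0.1. Where all arrays of a group were dim, not well above background, the fold is a lower bound, with each array of that group at the higher of its own value and the lowest level well above background. In data simulated for the heart comparison (14909 genes), 54% of changes of 1 (log2) and 83% of changes of 2 were recovered, with 10 false calls. The noise was drawn for each gene on its own, so deviations that genes of an array share were left out.

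The members, gene lists and rules were chosen with earlier results of these data known. At most 3 genes per list and comparison were named, by largest difference among called genes without overlap of the groups, and otherwise the 2 of smallest p. Slides were read from the scanner files. Replicate numbers stand for mice, so that equal numbers are 1 animal. Deviations from the group means correlated by 0.0189 on average within a mouse over 12220 genes and by -0.00842 between mice. Alternatives covered normalization, background correction, the score table, probe choice, filters, array weights, slide, age, WT arrays alone and each mouse left out. The sets without the hearts of mice B and E and without the liver of mouse C were chosen after seeing the data.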

Additional observations from a re-analysis of the deposited data

How the results depend on the processing

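No count of genes called between genotypes moved from 0 under any alternative, among them age as a term and, in heart, slide as a block. With slide as a term, heart against liver called 4 of the 10 genes and liver against brain 3, and the other counts stayed within 1.5 times under the alternatives run. Those others include muscle against brain with slide as a term, which lost Tnnt1, Tnni1 and Tnnc1. With the mouse as a replicate block, which pairs the tissues of an animal, the counts were 10, 7, 7, 9, 9 and 6 for heart against muscle, liver and brain, muscle against liver and brain, and liver against brain, as without it, and the block changed no call of a member. Of the values between tissues, 4 gained and 15 lost their call when a mouse was left out. Under the other alternatives 14 gained and 25 lost it. Those include the WT arrays alone and the set without the liver of KI mouse C, which leave out arrays. The median over all genes of muscle against brain was 0.27 and -0.05 on quantile normalization. All differences between genotypes that changed sign had failed the test, and the cause of a change was not tested. With array weights, the values of opposite sign were in liver Tnnt2 -0.46, in brain Tnni3 0.062, Tpm1 -0.018, in heart Tnnt2 0.11, Tnnt3 -0.074, Tnni2 0.10, Tnni3 0.047, Tnnc1 0.043, in muscle Tnnt2 -0.083, Tnnc1 -1.59, for heart against liver Tnni1 -0.00777, for liver against brain Tnnc2 -0.065. With the deposited scores (in score units), the values of opposite sign were in heart Tnnt2 0.020, Tnni2 0.010, Tnni3 0.00333. Without the hearts of KI mouse B and WT mouse E, the values of opposite sign were in heart Tnnt2 0.094, Tnnt3 -0.069, Tnni3 0.054, Tnnc1 0.13. With quantile normalization, the values of opposite sign were in heart Tnni2 0.041, Tnni3 0.00234, Tpm1 -0.060, in muscle Tpm1 -0.010, for heart against liver Tnni1 -0.20. With normexp and quantile normalization, the values of opposite sign were in heart Tnni2 0.00504, Tnni3 0.00307, in muscle Tpm1 -0.00834, for heart against liver Tnnt3 -0.43, Tnni1 -0.037, Tnnc2 -0.092. With the mean of all probes, the values of opposite sign were in muscle Tpm1 -0.00207. With WT arrays alone, the values of opposite sign were for heart against liver Tnni1 -0.37, for liver against brain Tnni2 -0.13, Tnnc2 -0.33. With slide as a term, the values of opposite sign were for heart against liver Tnnc2 -0.18. Without the liver of KI mouse C, the values of opposite sign were for liver against brain Tnnt3 -0.14, Tnnc2 -0.81. Leaving out each mouse in turn, the differences that changed sign ran in liver Tnnt1 -0.14 to 0.51, Tnnt2 -0.70 to 0.83, Tnnc1 -0.73 to 0.076, Tnnc2 -0.73 to 3.15, in brain Tnnt1 -0.28 to 0.13, Tnni1 -0.46 to 0.020, Tnni3 -0.11 to 0.067, Tnnc1 -0.24 to 0.11, Tpm1 -0.051 to 0.23, in heart Tnnt2 -0.092 to 0.098, Tnnt3 -0.15 to 0.39, Tnni2 -0.18 to 0.24, Tnni3 -0.14 to 0.040, Tnnc1 -0.33 to 0.11, Tpm1 -0.079 to 0.12, in muscle Tnnt1 -2.30 to 1.41, Tnnt2 -0.069 to 0.91, Tnnt3 -0.00618 to 0.32, Tnni1 -2.38 to 1.56, Tnni2 -0.072 to 0.18, Tnnc1 -2.21 to 1.81, Tnnc2 -0.13 to 0.22, Tpm1 -0.11 to 0.15, for heart against liver Tnnt3 -0.34 to 1.58, Tnni1 -0.37 to 0.57, Tnnc2 -0.15 to 1.61, for muscle against brain Tnnt2 -0.39 to 0.070, for liver against brain Tnnt3 -0.13 to 1.73, Tnnc2 -0.72 to 1.13. The number of mice limits what can be seen, and dim probes limit the troponins in liver and brain.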
